A study of Mus musculus with 4 samples.

Results

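The 10 genes described here mark basophils, eosinophils and mast cells, and were picked by symbol out of the 23284 gene rows of each deposited table. They are Prss34, Mcpt8, Prg2, Epx, Cpa3, Ms4a2, Fcer1a, Hdc, Il1rl1 and Srgn, and all 10 were found in all 4 libraries' tables. Each library is RNA from EGFP+ cells sorted out of the bone marrow of 1 wild-type recipient mouse, 24 h after it had received Lin- Sca1+ c-Kit+ (LSK) cells of CAG-EGFP donors. The 5-FU recipients (2 libraries) had been given 5-fluorouracil at 200 mg/kg 2 days before the transplant, and the control recipients (2 libraries) were untreated. The CAG promoter is active in nearly all cell types, so the EGFP gate does not select a lineage, and the recipients' other conditioning, if any, is not named. The value columns of the 5-FU tables are headed day 3 although those tables are named for day 2 (day 0 in both for the control tables). Groups and times here are those of the labels, and no label says what these day numbers count. No age of the mice is given. Expression is in FPKM, the fragments assigned to a gene divided by transcript length and by mapped fragments. Levels are set side by side between genes and libraries on that scale, although its normalization between libraries is not known.

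Basophils, eosinophils and mast cells arise in the marrow from myeloid progenitors and keep ready-made mediators in cytoplasmic granules. Basophils and mast cells carry the high-affinity IgE receptor, release histamine and store proteases on the proteoglycan serglycin, whereas eosinophils store cationic proteins such as major basic protein and eosinophil peroxidase. In the mouse, Prss34 and Mcpt8 encode proteases of basophils, Prg2 and Epx encode eosinophil major basic protein and eosinophil peroxidase, and Cpa3 encodes the carboxypeptidase of mast cells, which basophils and some progenitors also express.

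The start-site flanks of 5 of these genes are shown because the genes fell into sets with opposite library patterns: Prss34, Mcpt8, Fcer1a and Ms4a2 were highest in control recipient 1, and Epx was highest in control recipient 2. Prg2, also highest in control recipient 2, has no flank available. Il1rl1, highest there too but at only 0.251 FPKM, is not shown. Only Epx is shown for that set, so the words of the sets cannot be compared. The flanks of Cpa3 and Hdc, highest in control recipient 1, are not shown either. Each line is the 250 bases before the RefSeq transcript start in GRCm38.p6, the build to which mm10 corresponds, written 5′ to 3′ on the gene's strand. Capitals mark GATA-type words (the word AGATAA, the word AGATAG, the word TGATAA and the word TGATAG, on either strand).
Prss34 (chr17:25298144-25298393, plus strand): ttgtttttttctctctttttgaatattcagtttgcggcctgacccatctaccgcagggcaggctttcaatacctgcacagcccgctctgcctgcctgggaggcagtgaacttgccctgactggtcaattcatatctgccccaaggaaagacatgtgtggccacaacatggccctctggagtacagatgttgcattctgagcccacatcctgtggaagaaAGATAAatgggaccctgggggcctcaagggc
Mcpt8 (chr14:56085198-56085447, minus strand): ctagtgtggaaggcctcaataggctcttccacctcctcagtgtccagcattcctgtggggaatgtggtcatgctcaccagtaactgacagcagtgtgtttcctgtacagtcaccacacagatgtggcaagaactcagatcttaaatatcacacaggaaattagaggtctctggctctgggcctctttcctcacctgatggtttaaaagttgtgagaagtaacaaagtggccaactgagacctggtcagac
Fcer1a (chr1:173227230-173227479, minus strand): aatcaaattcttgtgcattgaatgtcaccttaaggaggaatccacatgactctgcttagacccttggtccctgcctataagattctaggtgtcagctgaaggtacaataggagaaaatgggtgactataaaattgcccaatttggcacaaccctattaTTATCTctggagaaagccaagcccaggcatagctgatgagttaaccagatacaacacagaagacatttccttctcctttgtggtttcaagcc
Ms4a2 (chr19:11623720-11623969, minus strand): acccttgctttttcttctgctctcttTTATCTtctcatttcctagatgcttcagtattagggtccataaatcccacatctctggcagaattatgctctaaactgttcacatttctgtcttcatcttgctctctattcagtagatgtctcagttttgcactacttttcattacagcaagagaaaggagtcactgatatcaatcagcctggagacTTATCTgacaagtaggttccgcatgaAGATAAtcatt
Epx (chr11:87875537-87875786, minus strand): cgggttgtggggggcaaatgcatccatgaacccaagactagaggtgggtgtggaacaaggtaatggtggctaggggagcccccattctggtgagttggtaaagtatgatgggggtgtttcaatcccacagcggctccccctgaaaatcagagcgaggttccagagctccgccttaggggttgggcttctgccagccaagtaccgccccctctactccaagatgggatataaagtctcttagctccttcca
The Prss34 flank holds 1 such word, beginning 31 bases before the start. Fcer1a holds 1, at 92 bases, and Ms4a2 holds 3, at 224, 37 and 11 bases. The Mcpt8 and Epx flanks hold none of these letters. Among the flanks not shown, those of Il1rl1 hold 5 and 1 words, those of Cpa3 and Hdc 1 each, and those of Srgn none. The Mcpt8 flank lies within the gene interval of 56082163 to 56085499, so it is not upstream of the whole gene. The Ms4a2 interval ends at 11623790, so its words at 37 and 11 bases also lie within the gene. The table has 11 flanks for 9 of the members, and 7 of these flanks held at least 1 word, beside 26.5% of all 32851 flanks of this length. A match here is a description of letters and not a binding site. Gata2, the transcription factor that basophils and mast cells depend on, had 22.7 and 34.5 FPKM in 5-FU recipients 1 and 2, against 25.1 and 16.7 FPKM in control recipients 1 and 2. Gata1, its relative in the same lineages, stood at 2.47 and 4.05 FPKM in 5-FU recipients, against 7.98 and 5.87 FPKM in control recipients.

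The basophil and eosinophil granule genes were abundant in the control libraries, but each pair in a different one. The summed FPKM of the 9 genes other than Srgn was 37.5 and 44.2 in 5-FU recipients 1 and 2, against 462.5 and 464.4 in control recipients 1 and 2. Prss34 and Mcpt8 made up 15.8% and 34.2% of that sum in the 5-FU recipients, 83.9% in control recipient 1 and 0.824% in control recipient 2. Prg2 and Epx made up 57.6% and 5.01% in the 5-FU recipients, 2.68% in control recipient 1 and 95.0% in control recipient 2. The control sums were thus close to each other in size while resting on different genes. By pair, the groups overlapped. Prss34 and Mcpt8 summed to 5.92 and 15.1 FPKM in 5-FU recipients 1 and 2, against 388.2 and 3.83 in control recipients 1 and 2. Prg2 and Epx summed to 21.6 and 2.21 FPKM in 5-FU recipients, against 12.4 and 441.3 in control recipients. No sum was tested between the groups. In these bulk libraries, a difference in cell number and one in RNA per cell cannot be told apart.

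**Figure D1:**
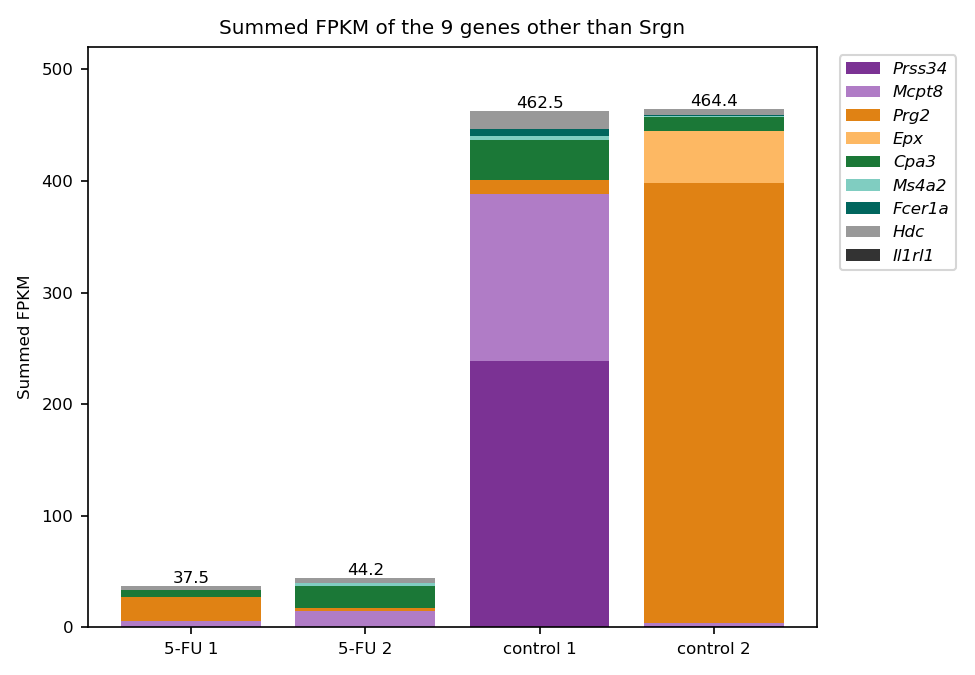
Summed FPKM (y axis) of the 9 genes other than Srgn in each library (x axis), with 1 colour per gene. The 5-FU libraries reach 37.5 and 44.2 and the control libraries 462.5 and 464.4, mostly from Prss34 and Mcpt8 in control 1 and from Prg2 and Epx in control 2.

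Prss34, a granule protease gene of basophils on chromosome 17 at 25298394 to 25300168, was at 0 in 5-FU recipient 1 and at 0.0988 FPKM in 5-FU recipient 2, against 238.6 and 1.24 FPKM in control recipients 1 and 2. The groups did not overlap, yet 1 control library held almost all of the signal. It was the gene of rank 416 by FPKM in control recipient 1 and of rank 11024 in control recipient 2. From the steps between low FPKM values, a single read weighed 1.07 times as much in 5-FU recipient 1, and 1.307 and 1.257 times as much in control recipients 1 and 2, as in 5-FU recipient 2. With that weight taken out, the Prss34 value of control recipient 2 was 10 times that of 5-FU recipient 2, and the value of control recipient 1 was 1848 times it. The log2 fold change of FPKM + 1 between 5-FU and control recipients was -4.47 (SE 1.75, limma adjusted p = 0.13), which did not pass. Prss34 reached 1 FPKM in the control libraries alone, so the filter fixed the direction of its change. The test is a linear model fitted to every gene with limma, which moderates each gene's variance over all genes, and a gene passed at an adjusted p under 0.05.

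Mcpt8, a basophil protease gene on chromosome 14 at 56082163 to 56085499, had 5.92 and 15.02 FPKM in 5-FU recipients 1 and 2, against 149.6 and 2.58 FPKM in control recipients 1 and 2. Both 5-FU libraries lay above control recipient 2 and below control recipient 1. The log2 fold change was -1.14 (SE 1.43, limma adjusted p = 0.63). The ratio of Prss34 to Mcpt8 was 0 and 0.00658 in 5-FU recipients, 1.60 in control recipient 1 and 0.481 in control recipient 2, so the basophil proteases did not keep to 1 ratio over the libraries.

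Prg2, the gene of eosinophil major basic protein on chromosome 2 at 84980461 to 84983632, had 21.0 and 2.21 FPKM in 5-FU recipients 1 and 2, against 12.2 and 394.0 FPKM in control recipients 1 and 2. Control recipient 2 stood far above the rest, and 5-FU recipient 1 was above control recipient 1. The log2 fold change was -3.10 (SE 1.46, limma adjusted p = 0.19). Epx, the eosinophil peroxidase gene on chromosome 11 at 87863997 to 87875536, had 0.644 FPKM in 5-FU recipient 1 and was listed at 0 in 5-FU recipient 2, against 0.210 and 47.3 FPKM in control recipients 1 and 2. It reached 1 FPKM in control recipient 2 alone and was therefore not tested. Prg2 ranked 257 by FPKM in control recipient 2 and 5942 in control recipient 1.

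**Figure D2:**
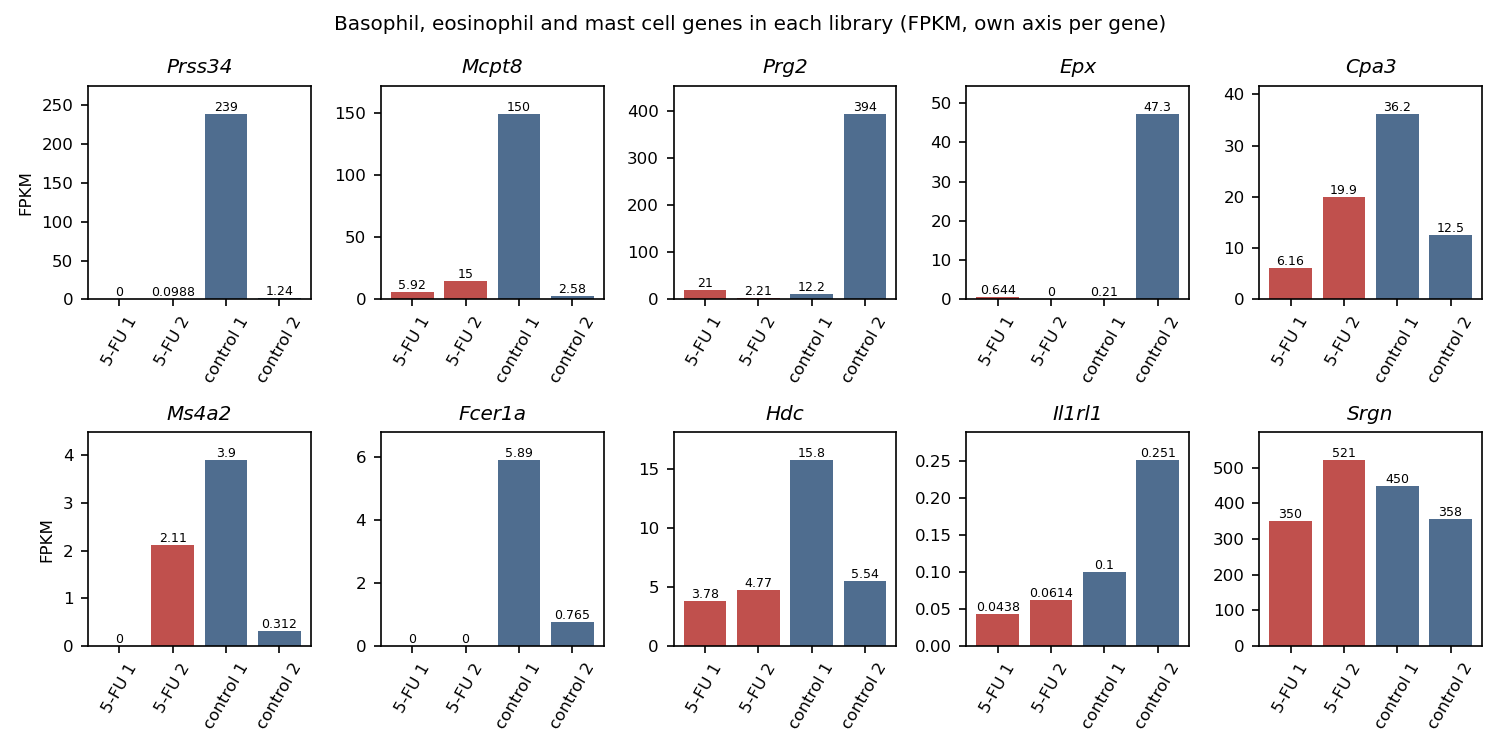
FPKM (y axis, from 0 with its own scale for each gene) of the 10 genes in each of the 4 libraries (x axis), 1 bar per library with its value above it. Prss34, Mcpt8, Cpa3, Ms4a2, Fcer1a and Hdc are highest in control 1, Prg2, Epx and Il1rl1 in control 2, and Srgn in 5-FU 2.

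The IgE receptor is built of an IgE-binding alpha chain (Fcer1a), a signal-amplifying beta chain (Ms4a2) and the common gamma chain (Fcer1g), which macrophages and other myeloid cells also use. Fcer1a was listed at 0 in both 5-FU libraries and had 5.89 and 0.765 FPKM in control recipients 1 and 2. It reached 1 FPKM in 1 library and was not tested. Ms4a2 was at 0 in 5-FU recipient 1 and at 2.11 FPKM in 5-FU recipient 2, against 3.90 and 0.312 FPKM in control recipients 1 and 2, so the groups overlapped (log2 fold change -0.52, SE 0.72, limma adjusted p = 0.66). Fcer1g, by contrast, stood at 1413 and 1176 FPKM in 5-FU recipients, against 2349 and 2427 FPKM in control recipients (log2 fold change -0.89, SE 0.28, limma adjusted p = 0.076). The gamma chain was therefore abundant in the 5-FU libraries, where the alpha chain was listed at 0.

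Cpa3 had 6.16 and 19.9 FPKM in 5-FU recipients 1 and 2, against 36.2 and 12.5 FPKM in control recipients 1 and 2. The higher 5-FU library exceeded the lower control library, and the log2 fold change was -0.87 (SE 0.59, limma adjusted p = 0.35). Hdc, the histidine decarboxylase gene whose enzyme makes histamine, had 3.78 and 4.77 FPKM in 5-FU recipients, against 15.8 and 5.54 FPKM in control recipients. Its groups did not overlap, but the gap between 5-FU recipient 2 and control recipient 2 was small beside that between the controls (log2 fold change -0.995, SE 0.44, limma adjusted p = 0.17). Il1rl1, which encodes the IL-33 receptor ST2 of mast cells, basophils and eosinophils, stayed near 0, at 0.0438 and 0.0614 FPKM in 5-FU recipients and 0.1001 and 0.251 FPKM in control recipients, and was not tested.

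Srgn, which encodes the serglycin core protein and is expressed across hematopoietic cells, was the abundant and even member. It had 350.5 and 520.7 FPKM in 5-FU recipients 1 and 2, against 449.7 and 357.5 FPKM in control recipients 1 and 2, with means of 435.6 ± 120.4 FPKM in 5-FU and 403.6 ± 65.2 FPKM in control recipients (SD, n = 2 each). The ranges overlapped and the log2 fold change was 0.09 (SE 0.26, limma adjusted p = 0.84). Its rank lay between 221 and 289 in the 4 libraries, so Srgn did not follow the basophil or the eosinophil genes.

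No member passed the test between 5-FU and control recipients. Of the 10 genes, 7 passed the filter of 1 FPKM in at least 2 libraries and 3 (Epx, Fcer1a and Il1rl1) did not. By limma, 0 of the 7 tested were lower and 0 higher at an adjusted p under 0.05, where 4.67% of all 11496 tested genes were lower and 8.23% higher. At an unadjusted p under 0.05 the count was 1 of the 7, for Prss34, beside 3607 of the 11496 tested genes. The fold change was negative for 6 of the 7, with a median of -0.995 beside -0.015 over all tested genes. Both 5-FU libraries lay below both control libraries for 4 of the 10 (Prss34, Fcer1a, Hdc and Il1rl1) and for 2 of the 7 tested, beside 30.7% of all tested genes.

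The comparison changed with the control library left out. Without control recipient 2, Prss34 stood at -7.84, Mcpt8 at -3.84 and Prg2 at -0.65. Without control recipient 1, Prg2 stood at -5.55, Prss34 at -1.10, and Mcpt8 turned to 1.55. Leaving out 5-FU recipient 1 took Prg2 to -4.49 and Cpa3 to -0.097. Leaving out 5-FU recipient 2 took Prg2 to -1.72 and Cpa3 to -1.64. In these fits the lone library of a group is assumed to vary like the other group. For Prss34 that assumption failed. Its log2 difference was 6.74 between the control libraries and -0.136 between the 5-FU libraries. Only effect sizes are therefore given for these fits.

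**Figure D3:**
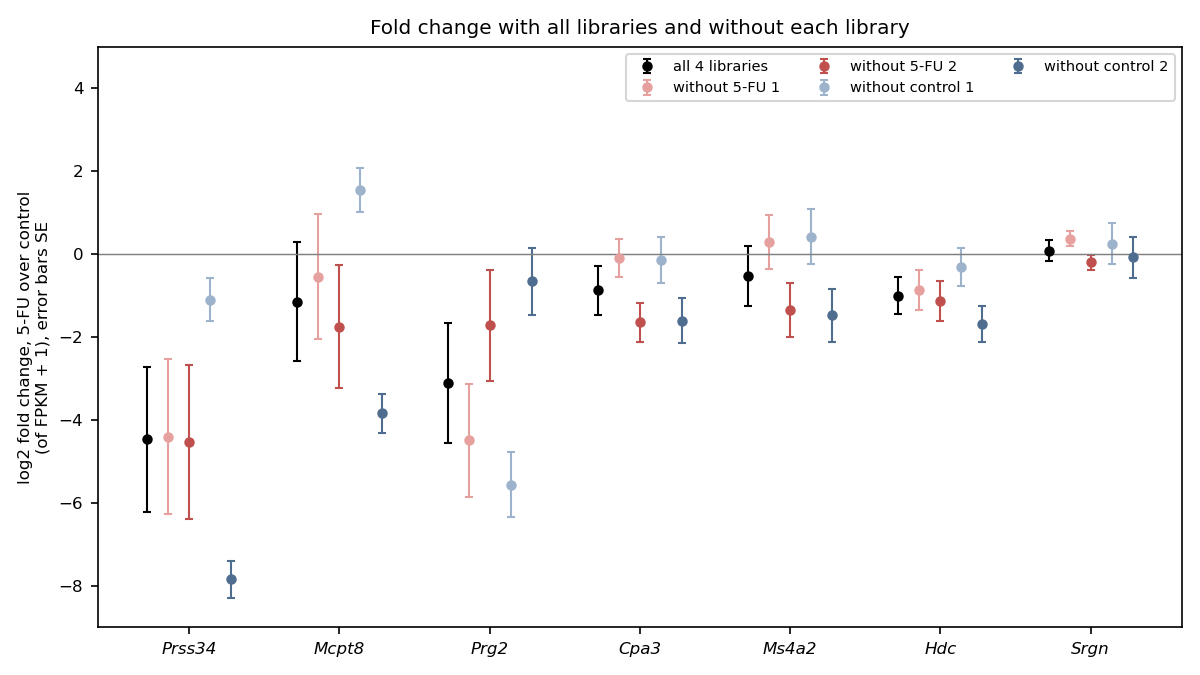
Log2 fold change of FPKM + 1, 5-FU over control recipients (y axis), for the 7 tested genes (x axis), with all 4 libraries and with each library left out. Points are limma estimates and bars their SE. With a library left out, the bars draw on the spread of the other group. Mcpt8 is at -3.84 without control 2 and at 1.55 without control 1, and Prg2 at -0.65 and -5.55.

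The spread within the control pair was wide for these genes and narrow for most others. Over all tested genes the median absolute difference between the control libraries was 0.21 on the log2(FPKM + 1) scale and its 99th percentile 1.22. Control recipient 1 exceeded control recipient 2 by 6.74 for Prss34, and 11 tested genes had a larger difference in either direction. The difference was 5.39 for Mcpt8, with 13 tested genes above it, and -4.90 for Prg2, with 16 above it. Ms4a2 at 1.90, Cpa3 at 1.46 and Hdc at 1.36 also lay past the 99th percentile, and Srgn at 0.33 did not. Between the 5-FU libraries the median over all tested genes was 0.355 and the 99th percentile 1.70. There Prg2 was higher in 5-FU recipient 1 by 2.77, past that percentile, while Mcpt8 at -1.21, Cpa3 at -1.55 and Ms4a2 at -1.64 were higher in 5-FU recipient 2 and lay within it.

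**Figure D4:**
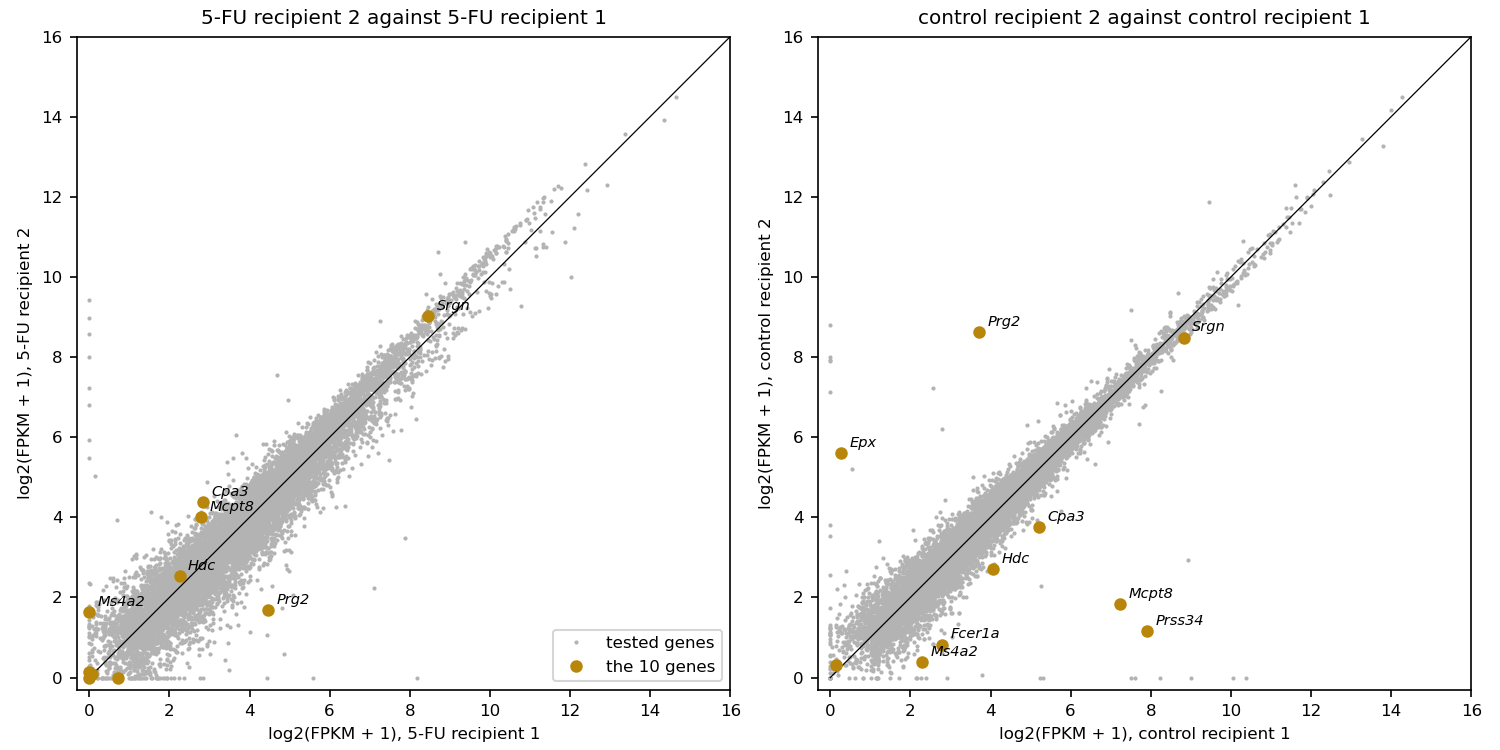
Log2(FPKM + 1) of tested genes (grey) and of the 10 genes (gold) in replicate 2 (y axis) against replicate 1 (x axis), for 5-FU recipients at left and control recipients at right. The line marks equal values, and genes under 1 on both axes carry no name. In the control panel Prss34 and Mcpt8 lie far below the line and Prg2 and Epx far above it.

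A rule set after these values were seen asked which genes stood out in 1 library alone, with at least 5 FPKM there and at least 3 on the log2(FPKM + 1) scale above each of the other 3 libraries. It found 14 and 15 genes for 5-FU recipients 1 and 2 and 12 and 18 for control recipients 1 and 2. Most in each library were microRNA or small nucleolar RNA genes, short features whose FPKM can rest on few reads. Without those, control recipient 1 had 2 genes, which were Prss34 and Mcpt8. Control recipient 2 had 6, which were Epx, Prg2, Prg3, Ear6, Elane and Stfa1. 5-FU recipient 1 had 4 (Sycn, Spink4, Spink3 and Tff3), none of them a member, and 5-FU recipient 2 had 0. Prg3, the second major basic protein gene, was listed at 0 in both 5-FU libraries and had 0.703 and 22.6 FPKM in control recipients 1 and 2. Elane, the neutrophil elastase gene of promyelocytes, had 2.55 and 1.82 FPKM in 5-FU recipients, against 4.94 and 147.7 FPKM in control recipients 1 and 2. Mpo, Prtn3 and Ctsg, of the same neutrophil list, did not stand out there. Mpo had 153.2 and 128.2 FPKM in 5-FU recipients, against 118.7 and 174.4 in control recipients. Prtn3 had 61.0 and 46.1, against 67.5 and 81.7. Ctsg had 25.8 and 20.8, against 5.57 and 8.99.

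The eosinophil-associated ribonucleases differed from one another. Ear6, of the eosinophil-associated ribonuclease family, stood at 2.54 and 0.988 FPKM in 5-FU recipients, against 5.94 and 73.0 FPKM in control recipients 1 and 2. Ear2 was high throughout, at 392.6 and 249.1 FPKM in 5-FU recipients, against 350.05 and 412.96 FPKM in control recipients (log2 fold change -0.28, limma adjusted p = 0.51). Ear10 was highest in control recipient 1. It had 0.405 FPKM in 5-FU recipient 1 and was listed at 0 in 5-FU recipient 2, against 3.96 and 0.476 FPKM in control recipients 1 and 2. The Ear genes are near-identical copies that share reads, so the value of each is uncertain. Of the 4 tested genes in the eosinophil granule list, 0 passed in limma and 1 had an unadjusted p under 0.05, with a median log2 fold change of -2.004. At that unadjusted threshold stood 3607 of all 11496 tested genes.

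Among surface genes of eosinophils, Il5ra was near 0 and Ccr3 was abundant in every library. Il5ra, the IL-5 receptor chain on which eosinophils depend, was at 0 in 5-FU recipient 1 and at 0.0596 FPKM in 5-FU recipient 2, against 0.0778 and 0.562 FPKM in control recipients 1 and 2. Ccr3, the eotaxin receptor, had 457.1 and 214.7 FPKM in 5-FU recipients, against 701.2 and 735.4 FPKM in control recipients (log2 fold change -1.19, SE 0.35, limma adjusted p = 0.061). Emr1 (Adgre1, the F4/80 antigen gene), which macrophages share with eosinophils, had 168.8 and 84.9 FPKM in 5-FU recipients, against 211.2 and 264.3 FPKM in control recipients (limma adjusted p = 0.084). Of the 8 tested genes in the eosinophil surface list, 0 rose and 1 fell, where 8.23% of all tested genes were higher and 4.67% lower. The gene that fell was the adhesion receptor gene Emr4 (Adgre4), which macrophages also express. It had 55.7 and 30.1 FPKM in 5-FU recipients, against 154.9 and 154.6 FPKM in control recipients (log2 fold change -1.89, SE 0.29, limma adjusted p = 0.013).

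Of the other basophil genes, Gata2 had the values given beside the flanks. Cd200r3, an activating receptor of basophils and mast cells, had 0.826 and 3.75 FPKM in 5-FU recipients 1 and 2, against 7.18 and 1.01 FPKM in control recipients 1 and 2. The order of the libraries was the one seen for Cpa3. Il4, a cytokine that basophils make, had 1.62 and 2.01 FPKM in 5-FU recipients, against 6.58 and 4.11 FPKM in control recipients. Of the 9 tested genes in the basophil list, 1 rose and 0 fell, where 8.23% of all tested genes were higher and 4.67% lower. The one that rose was Ccr2, a chemokine receptor gene also expressed by monocytes, with 10.7 and 17.6 FPKM in 5-FU recipients, against 3.58 and 4.96 FPKM in control recipients (log2 fold change 1.496, SE 0.32, limma adjusted p = 0.027).

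Defining genes of mature mast cells were at or near 0. Of 9 mast cell protease genes, 7 were listed at 0 in all 4 libraries: the chymase genes Cma1, Mcpt1, Mcpt4 and Mcpt9 and the tryptase genes Tpsab1, Tpsb2 and Tpsg1. Mcpt2 was the 1 of the 2 tested that fell, with 0.279 FPKM in 5-FU recipient 1 and listed at 0 in 5-FU recipient 2, against 1.54 and 3.61 FPKM in control recipients 1 and 2 (log2 fold change -1.60, SE 0.40, limma adjusted p = 0.042). It has closely related neighbours that can share reads, so that value is uncertain. Mcpt2 reached 1 FPKM in the control libraries alone, so the filter admitted it only through them and fixed its direction. In the mast cell surface list 0 of 3 tested genes passed in limma, and 0 at an unadjusted p under 0.05. Beside these lists, 4.67% of all tested genes were lower and 8.23% higher, and 3607 of 11496 had an unadjusted p under 0.05. The mast cell receptor gene Mrgprb2 and the serotonin synthesis gene Tph1 were listed at 0 throughout. Cd63, a granule membrane gene that many cell types express, had 785.7 and 549.97 FPKM in 5-FU recipients, against 756.2 and 994.3 FPKM in control recipients (limma adjusted p = 0.365). Kit, which mast cells share with the transplanted progenitors, stood at 66.2 and 69.5 FPKM in 5-FU recipients, against 102.8 and 65.5 FPKM in control recipients (limma adjusted p = 0.49). Cpa3, Hdc and the IgE receptor genes, which basophils express as well, were the mast cell genes among the 10, beside Srgn, that exceeded 1 FPKM in at least 1 library.

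**Figure D5:**
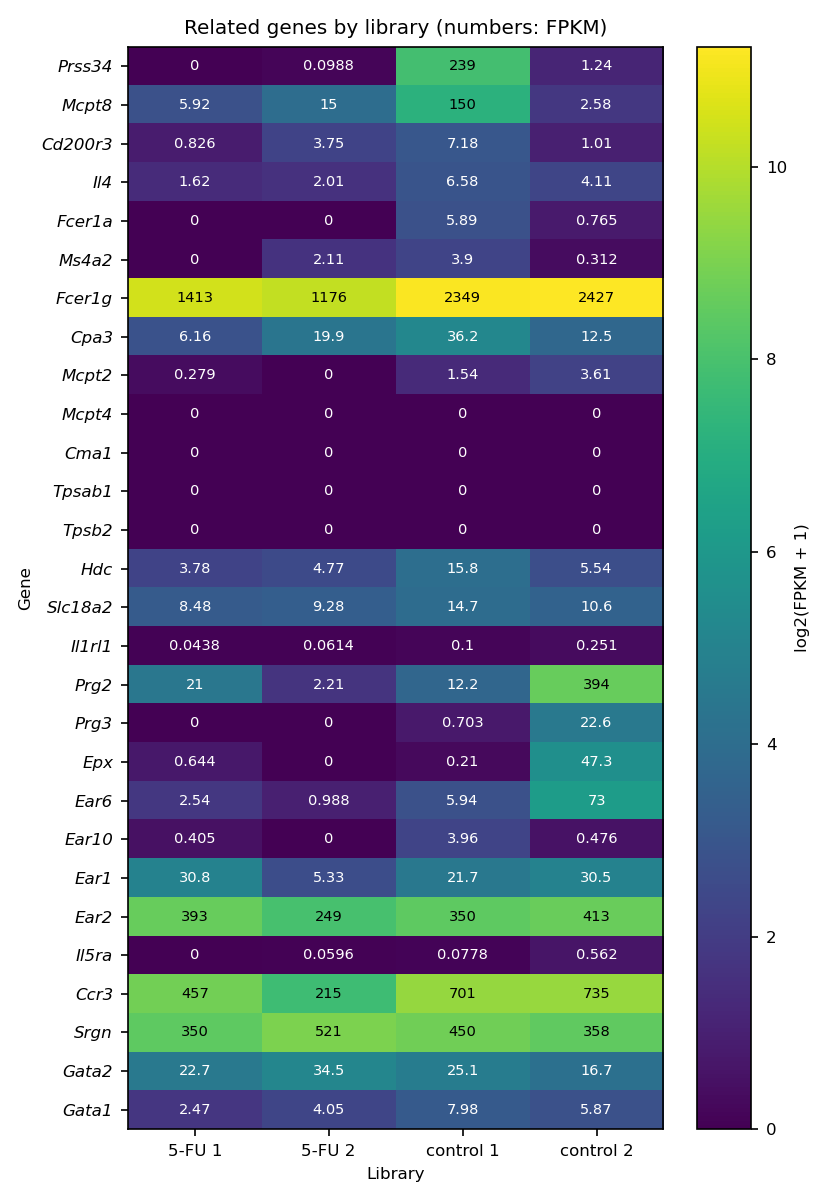
FPKM (numbers) and log2(FPKM + 1) (colour) of the members and related genes (rows) in the 4 libraries (columns). Cma1, Mcpt4, Tpsab1 and Tpsb2 are at 0 throughout, Prg3 and Ear6 are highest in control 2 as Prg2 and Epx are, and Fcer1g, Ear2, Ccr3 and Srgn are high in every library.

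The genes that act with the members were counted list by list. Over all tested genes, 4.67% were lower and 8.23% higher, and 3607 of 11496 had an unadjusted p under 0.05. Of 15 tested genes of IgE receptor signalling, 2 fell and 0 rose, with a median of -0.33. Lyn, the kinase that starts the receptor's signal, had 99.9 and 65.2 FPKM in 5-FU recipients, against 173.1 and 153.0 FPKM in control recipients (log2 fold change -1.003, SE 0.24, limma adjusted p = 0.037), and the adaptor gene Lcp2 (SLP-76) fell by 1.08. Both also serve macrophages and lymphocytes. In histamine handling 0 of 6 tested genes passed in limma and 2 had an unadjusted p under 0.05, with a median of -0.14. Slc18a2, which loads histamine into granules, had 8.48 and 9.28 FPKM in 5-FU recipients, against 14.7 and 10.6 FPKM in control recipients. Slc22a3, a transporter gene for histamine and other organic cations, had 24.8 and 36.3 FPKM in 5-FU recipients, against 17.2 and 12.3 FPKM in control recipients (log2 fold change 0.99, limma adjusted p = 0.053). Hnmt, whose enzyme inactivates histamine, had 10.96 and 6.90 FPKM in 5-FU recipients, against 13.6 and 16.3 FPKM in control recipients (limma adjusted p = 0.14). Neither passed.

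In limma the counts of genes passed were 0 of 15 for serglycin and heparin synthesis, 0 of 6 for IL-33 and ST2 signalling, 0 of 7 for the IL-3, IL-5, GM-CSF and TSLP receptors and 0 of 17 for lineage transcription factors. Their medians were -0.14, -0.075, -0.48 and -0.24, and their counts at an unadjusted p under 0.05 were 1, 1, 0 and 6. The count at that threshold was 3607 among all 11496 tested genes. Beside Srgn, the most abundant gene of the serglycin list was the heparan chain polymerase gene Ext2, at 30.5 and 35.2 FPKM in 5-FU recipients, against 37.0 and 38.5 FPKM in control recipients. The adaptor gene Myd88, which carries the IL-33 signal, had 35.6 and 33.9 FPKM in 5-FU recipients, against 48.6 and 40.2 FPKM in control recipients. Its partner kinase gene Irak1 had 62.5 and 58.9 FPKM in 5-FU recipients, against 68.5 and 64.2 FPKM in control recipients. Both signalling genes were thus present in every library, while the ST2 gene Il1rl1 stayed near 0. Csf2ra, the GM-CSF receptor alpha chain gene, had 86.8 and 52.8 FPKM in 5-FU recipients, against 83.1 and 108.9 FPKM in control recipients. Crlf2, the TSLP receptor gene, had 27.96 and 36.2 FPKM in 5-FU recipients, against 24.8 and 29.6 FPKM in control recipients. The groups overlapped for both receptor genes. Among the transcription factors Id2, an inhibitor of basic helix-loop-helix proteins, had 542.7 and 387.3 FPKM in 5-FU recipients, against 795.3 and 843.2 FPKM in control recipients (limma adjusted p = 0.066). Lmo2, a partner of GATA factors in progenitors, had 269.5 and 334.2 FPKM in 5-FU recipients, against 303.8 and 243.4 FPKM in control recipients (limma adjusted p = 0.705).

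Of the secreted mediators and eicosanoid genes 4 of 9 tested were lower and 0 higher, with a median of -1.15. Among all tested genes the shares were 4.67% lower and 8.23% higher. Ccl3, a chemokine gene of basophils, mast cells and macrophages, had 4.40 and 5.48 FPKM in 5-FU recipients, against 86.3 and 76.4 FPKM in control recipients (log2 fold change -3.80, SE 0.22, limma adjusted p = 0.00038). Its neighbour Ccl4 fell by 2.19, and the prostaglandin synthesis genes Ptgs1 and Hpgds also fell, with log2 fold changes of -1.17 and -0.998. For each of these 4 genes both control libraries lay above both 5-FU libraries, and the control libraries were within 1.5 times of each other, which those of Prss34 and Prg2 were not. These 4 genes were named because they passed, which favours close replicates, so their evenness is no separate result. Alox5ap, which encodes the activating protein of leukotriene synthesis, was abundant in every library, at 145.1 and 164.5 FPKM in 5-FU recipients and 175.3 and 113.2 FPKM in control recipients, and did not pass (limma adjusted p = 0.75). The cytokine genes Il5 and Il13 were listed at 0 in every library.

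The labels call the sorted cells hematopoietic stem and progenitor cells, but macrophage genes such as Vcam1 were abundant, at 3756 and 1882 FPKM in 5-FU recipients and 5037 and 5245 FPKM in control recipients. Markers of other cells moved between the same groups, where 4.67% of all tested genes were lower and 8.23% higher. Of 15 tested neutrophil genes 7 fell and 1 rose, with summed FPKM of 3640 to 3868 in 5-FU recipients and 10226 to 12811 in control recipients. Of 16 macrophage genes 3 fell, with sums of 10877 to 21114 in 5-FU recipients and 24108 to 28215 in control recipients. Of 10 erythroid genes 8 fell (sums 375.3 to 567.6 in 5-FU recipients and 1800 to 2192 in control recipients), and of 10 B cell genes 7 fell (197.9 to 244.1 in 5-FU recipients and 480.9 to 527.7 in control recipients). The stem and progenitor list had 1 of 11 higher, the T and NK list 1 of 5 higher and 1 lower, and the megakaryocyte list 0 of 6 (0 at an unadjusted p under 0.05). No gene of the neutrophil, macrophage, erythroid or B cell list was at 0 in all libraries. The part of these cells in the values of the 10 genes was not tested. Over all genes the FPKM added up to 678270 and 762107 in the 5-FU libraries, against 680412 and 678222 in the control libraries.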

How the data were processed

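The submitters' processing notes name the build mm10 and the tools TopHat2 2.0.13, Bowtie2 2.2.3, SAMtools 0.1.19 and Cuffnorm 2.2.1. The deposited values are FPKM that the authors made with Cuffnorm. Not given in the sources used here are its normalization setting, the annotation and the depth. An exact 0 may be a failed estimate and is given as listed at 0. Nothing says whether donor cells were pooled, so p-values measure the spread between these libraries.

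Genes reaching 1 FPKM in 2 or more of the 4 libraries were tested with limma 3.58.1 in R 4.3.3 on log2(FPKM + 1), with the group as sole term, a mean-variance trend, two-sided p and Benjamini-Hochberg adjustment over 11496 genes (residual degrees of freedom 2, prior 5.62). Such fold changes understate the change of low genes. A gene that reached 1 FPKM in the libraries of 1 group alone had its direction fixed by the filter. The code was tested on simulated data. The worth of a read came from the most frequent ratio between libraries among genes under 1 FPKM. Of 214 listed genes, 206 matched by symbol, 6 by synonym and 2 not at all, and a row matched by 2 of them (Siglec5) counts once. The members and lists were chosen with earlier results of these data known. Named are all members and, in each list of basophil, eosinophil or mast cell biology, the 2 most abundant genes and the passing genes (at most 4). Lists of other cell types are given by counts and sums. Other genes named were chosen after their values were seen. Mcpt8 and Cpa3 each overlap a microRNA gene on the same strand. Alternatives varied the pseudocount (0.1, 5), filter (none, 5 FPKM), scaling (TPM, median ratio), trend, a replicate block and each library left out.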

Additional observations from a re-analysis of the deposited data

How the results depend on the processing

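None of the 7 tested members was higher or lower with any pseudocount, filter, scaling or trend setting tried. With the replicate number as a block, 1 member was called lower (Prss34, limma adjusted p = 0.0067). The numbers pair nothing the labels name, and deviations of same-numbered libraries correlated at -0.159. With the numbers crossed, a pairing added after seeing the data, 4 members were lower, and 1686 genes were higher and 1365 lower. Over all genes, 946 were higher and 537 lower. These became 548 and 299 without a trend, 3 and 4 without a filter (3680 genes at an unadjusted p under 0.05), and 88 to 2122 and 38 to 1876 without 1 library. With the replicate block 855 were higher and 539 lower. Of 82 member fold changes under alternatives, 5 changed sign, all 5 on leaving out a library. Mcpt8 ranged from -3.84 to 1.55 and Ms4a2 from -1.47 to 0.43 (0.30 without 5-FU recipient 1). Srgn ranged from -0.19 to 0.38 (-0.07 without control recipient 2). The cause was not tested. Ms4a2 and Prss34 fell out of the 5 FPKM filter and have no value there.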
